A study of Zea mays with 6 samples.

Results

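The salt response of maize crown root tips was read from 2 of the 6 libraries of a study that sequenced the RNA of 3 root types with and without salt. The CR-salt library came from crown roots (CR) in 100 mM NaCl for 24 h and the CR library from crown roots kept at 0 mM NaCl. Both were chosen by their column names in the deposited table. Of the 48312 transcripts (43006 genes) in that table, 40132 had a read in CR-salt or CR and entered the comparison.

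All seedlings were of the maize cultivar Chang 7-2 and grew in Hoagland's solution, with NaCl as the stated difference between the libraries of a root type. Each library held pooled tips of 1 cm from 10 to 15 roots, so differences between seedlings are averaged within it. The seminal root pair (SR-salt and SR) and the primary root pair (PR-salt and PR) came from seedlings of other ages, so root type and age cannot be told apart. Each condition has 1 library, although the labels speak of 3 biological replicates collected for a root type, and how these relate to the library is not stated. Every ratio below has counting error only and no replicate check, and fewer cells of a type and less RNA per cell cannot be told apart.

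Crown roots are shoot-borne roots that form at stem nodes and make up most of the adult maize root system. The tip holds the meristem, the elongating cells and the youngest part of the differentiated root, where the root starts to take up nutrients and to build its barriers. NaCl imposes an osmotic stress within minutes and an ionic stress as Na+ accumulates, and roots are known to respond through abscisic acid (ABA), wall remodelling, transport and changes in sugar and nitrogen metabolism. Maize is also a grass that takes up iron by releasing phytosiderophores, which it makes from methionine through nicotianamine.

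In units of 1000, the counted reads were 2533 in CR-salt and 2613 in CR, within 2493 to 2663 over the 6 libraries, and 35434 transcripts in CR-salt and 35545 in CR had at least 1 read. A transcript was called a differentially transcribed gene (DTG) when the Audic-Claverie test on the reads of the 2 libraries gave a false discovery rate (FDR) of at most 0.001 and the log2 RPKM ratio was at least 1 in size. RPKM divides the reads by the transcript's length and by the counted reads of the library. The test compares these libraries, not the conditions. "Measured" below means at least 20 reads in the pair, which 17797 transcripts had. Their median log2 ratio was 0.02, and 52.3% of them had a ratio above 0.

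In CR-salt against CR, 148 transcripts were DTGs, of which 54 rose and 94 fell. These were 0.303% up and 0.528% down of the measured transcripts, and 0.135% and 0.234% of those tested (0.369% in both directions). At the FDR alone, without the ratio threshold, 221 transcripts were higher and 244 lower in CR-salt, 1.24% and 1.37% of the measured ones (0.551% and 0.608% of those tested). Of the DTGs, 90 had a KEGG Orthology entry and 78 a GO Process term. In the 79 lists drawn from the KEGG entries, 71 DTGs were found (30 up and 41 down), and 77 were in no list (24 up and 53 down). Of the lists, 14 had DTGs in the up direction only, 22 in the down direction only, 3 in both, and 40 had none. If libraries are assumed to vary between plants with a biological coefficient of variation (BCV) of 0.1, 65 of the DTGs are left. A variation was also estimated from the 6 libraries, with root type and salt taken as additive. It was estimated per transcript for 18444 transcripts with enough reads, and the common BCV of 0.102 served for the rest. With this estimated variation, 9 are left. These 9 are GRMZM2G145518, the only one that rose, and GRMZM2G027167, GRMZM2G342246, GRMZM2G065030, GRMZM2G456217, GRMZM2G019974, GRMZM2G329710, GRMZM2G119766 and AC198414.2_FGT001, so every other DTG described below misses the thresholds with the estimated variation. Without replicates, that estimate counts salt ratios that differ between root types as variation. A response seen in crown roots alone can lose its call for that reason.

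**Figure D1:**
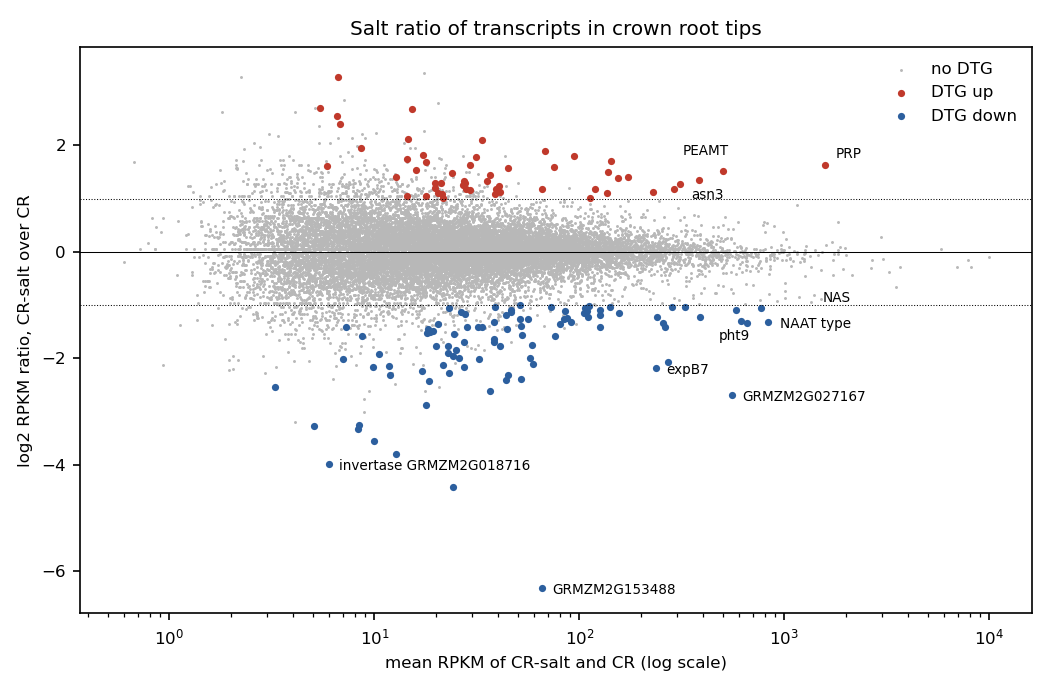
Each point is a measured transcript, at its mean RPKM in CR-salt and CR (x axis, log scale) and its log2 RPKM ratio, CR-salt over CR (y axis). The 54 DTGs that rose and the 94 that fell are coloured; of the most abundant transcripts, those for nicotianamine synthase (NAS), methionine salvage and ribose recycling sit below 0 without being DTGs.

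Among the most abundant transcripts that were lower under salt were those for the synthesis of nicotianamine and the recycling steps around it. Nicotianamine synthase joins 3 molecules of S-adenosylmethionine into nicotianamine, a chelator of iron and other metals. Of 9 annotated transcripts 6 were measured, and together they took 12134 reads in CR-salt (0.479% of the library) and 22536 reads in CR (0.862%). The log2 ratio of these sums was -0.85, with an interval from -0.88 to -0.82 (95%, counting error). None of the 6 was a DTG, but 5 were lower at the FDR alone and 1 was above 0, and the list's median was -0.83, beside 0.02 over all measured transcripts.

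GRMZM2G124785 had 4644 reads in CR-salt and 8444 in CR, and nas2 (GRMZM2G030036) had 3836 in CR-salt and 7136 in CR. Their RPKM was 1015 and 839 in CR-salt, against 1789 and 1512 in CR, log2 ratios of -0.82 (interval -0.87 to -0.77) and -0.85 (interval -0.91 to -0.79). The counted reads were the uniquely aligned ones, so how reads were shared among these near-identical copies is uncertain, and the sum over the family is given beside them. The family had 7243 reads in SR-salt and 9496 in SR, and 63 reads in PR-salt and 73 in PR.

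The next enzyme on the route in grasses, nicotianamine aminotransferase, carries the KEGG entry of tyrosine aminotransferase in this annotation. GRMZM2G412604 had 1596 reads in CR-salt and 4101 in CR (RPKM 476 in CR-salt and 1186 in CR), and naat1 (GRMZM2G096958) had 472 reads in CR-salt and 1302 in CR. Both fell, by 1.32 (interval -1.40 to -1.23) and 1.42 (interval -1.57 to -1.27) on the log2 scale. All 5 measured transcripts of the entry were below 0, 2 as DTGs, and its median of -1.32 was the lowest of the 373 KEGG entries with at least 5 measured transcripts. The nicotianamine synthases had the second lowest and the SWEET sugar transporters, described below, the third lowest. In SR the log2 ratio of GRMZM2G412604 was -0.60 and in PR 0.30.

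Each nicotianamine releases methylthioadenosine, which the methionine salvage (Yang) cycle turns back into methionine, while adenine and ribose recycling and formate dehydrogenase take up by-products. All 5 measured transcripts of the salvage list were below 0, 3 of them at the FDR alone, with a median of -0.66. GRMZM2G574782, the transcript with the most reads in both libraries, had 10654 reads in CR-salt and 17392 in CR (RPKM 2707 in CR-salt and 4282 in CR, log2 -0.66, interval -0.70 to -0.63). The pooled salvage reads were 13196 in CR-salt and 21081 in CR (log2 -0.63, interval -0.66 to -0.60), while the pooled log2 ratio was 0.11 in SR and 0.25 in PR.

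Of the 6 measured transcripts of adenine and ribose recycling 4 were lower at the FDR alone, with a median of -0.72. The most abundant, GRMZM2G093347, had 3101 reads in CR-salt and 4311 in CR (log2 -0.43), and GRMZM2G035599 had 849 in CR-salt and 1725 in CR (log2 -0.98, interval -1.10 to -0.86). Of 3 formate dehydrogenases, GRMZM2G111616 fell, with 106 reads in CR-salt and 236 in CR (log2 -1.11, interval -1.45 to -0.77), and the more abundant GRMZM2G049811 had 2171 in CR-salt and 3709 in CR (log2 -0.73). Adenosine kinase, which returns adenosine to AMP, fell as GRMZM2G051842, with 149 reads in CR-salt and 381 in CR (log2 -1.31, interval -1.59 to -1.03).

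The steps that feed this route held no DTG. The 4 measured transcripts of methionine and S-adenosylmethionine synthesis had a median of -0.17 and no DTG, and the most abundant, AC199526.5_FGT002, had 2636 reads in CR-salt and 2810 in CR (log2 -0.05). Metal transporters were mixed, with no DTG among 16 measured and a median of -0.10. GRMZM2G118821, a member of the SLC39 (ZIP) family of zinc and iron carriers, had 1154 reads in CR-salt and 752 in CR (log2 0.66, interval 0.53 to 0.80). The NRAMP-type carrier GRMZM2G178190 had 845 in CR-salt and 1322 in CR (log2 -0.60), and the copper ATPase entry GRMZM2G029951 had 1524 in CR-salt and 2868 in CR (log2 -0.87). The SLC39 member was thus higher and the other named carriers lower, all within 2-fold.

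**Figure D2:**
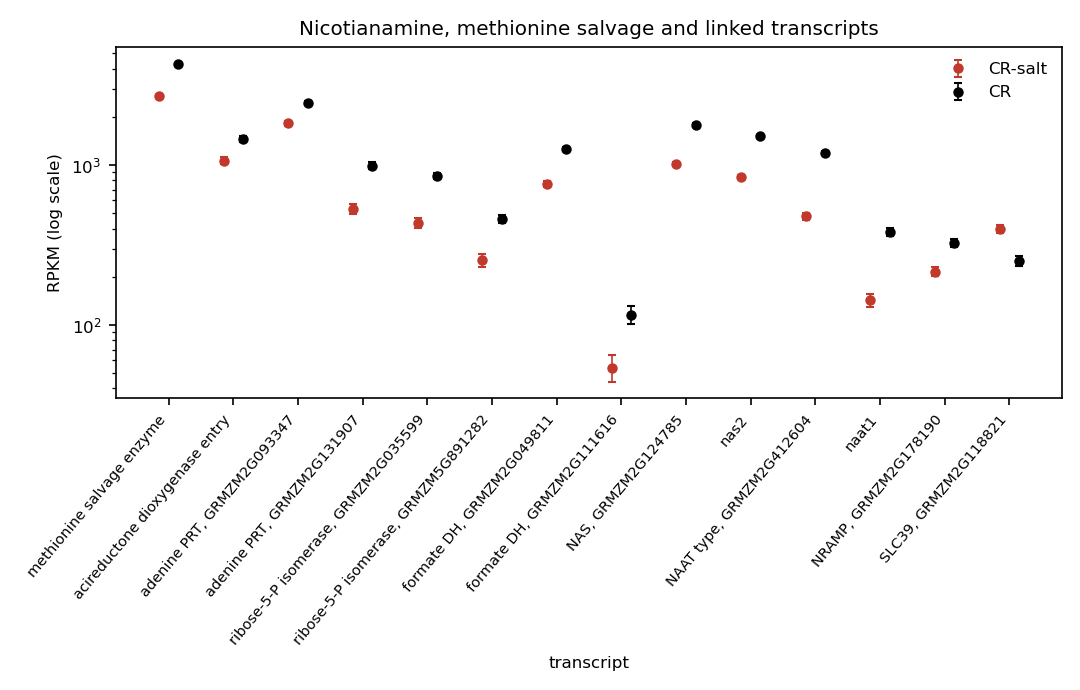
RPKM on a log scale of 14 transcripts of methionine salvage, adenine and ribose recycling, formate dehydrogenase, nicotianamine synthesis and metal transport, with CR-salt left of CR and bars for the exact Poisson interval (95%, counting error). All but GRMZM2G118821 (SLC39) are lower in CR-salt.

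Of 3 measured phosphate transporters (PHS family), 1 fell and 1 was above 0. The one that fell, pht9 (GRMZM2G070087) had 1412 reads in CR-salt and 3594 in CR (RPKM 354 in CR-salt and 873 in CR, log2 -1.30, interval -1.39 to -1.21). Its log2 ratio was -0.43 in SR and 0.01 in PR.

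The 3 lists of nitrogen uptake held 1 transcript each that rose and none that fell. Among high-affinity nitrate transporters, GRMZM2G010251, called nrt2.2 here, had 228 reads in CR-salt and 100 in CR (log2 1.23, interval 0.89 to 1.59), GRMZM2G010280, which RefSeq places in the same gene, had 142 in CR-salt and 81 in CR, and GRMZM2G163866 had 312 in CR-salt and 242 in CR, all 3 measured members being above 0. In the other root types nrt2.2 had 259 reads in SR-salt and 50 in SR, against 1 in PR-salt and 77 in PR. An ammonium transporter, GRMZM2G028736, had 165 reads in CR-salt and 55 in CR (log2 1.63, interval 1.18 to 2.10), 1 of 3 measured. Of 35 peptide and nitrate transporters of the SLC15 family, GRMZM2G061303 alone was a DTG, with 133 reads in CR-salt and 56 in CR (log2 1.29), and the median was -0.08.

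Nitrate and nitrite reductase, which turn nitrate into ammonium, were above 0 in all 4 measured transcripts, 2 of them at the FDR alone, with no DTG. Nitrite reductase GRMZM2G102959 had 978 reads in CR-salt and 641 in CR (log2 0.65, interval 0.51 to 0.80), and nitrate reductase NNR1 (GRMZM2G568636) had 1025 in CR-salt and 832 in CR. Glutamine synthetase, which fixes the ammonium, had no DTG among 4, and its main form gln4 (GRMZM5G872068) had 1718 reads in CR-salt and 1785 in CR (log2 -0.01).

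The next steps, to glutamate and asparagine, held 3 DTGs, all up. Glutamate synthase GRMZM2G085078 rose, with 146 reads in CR-salt and 49 in CR (log2 1.62, interval 1.14 to 2.12). Asparagine synthase, which stores nitrogen in an amide that plants move between organs, had 2 DTGs in 3 measured transcripts and a median of 1.27. Its main form asn3 (GRMZM2G053669) had 1969 reads in CR-salt and 842 in CR (RPKM 440 in CR-salt and 182 in CR, log2 1.27, interval 1.15 to 1.39). GRMZM2G078472 had 252 in CR-salt and 76 in CR (log2 1.77, interval 1.40 to 2.16). Both asparagine synthases, the ammonium transporter and the glutamate synthase stay DTGs with an assumed BCV of 0.1, and nrt2.2 does not. Glutamate dehydrogenase had no DTG among 3 (GRMZM2G427097 with 403 reads in CR-salt and 315 in CR).

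Among sugar transporters, the SWEET family had falls only. SWEET proteins (SLC50) let sugars pass along their gradient into or out of cells, and 4 of 10 measured fell, none rose, with a list median of -0.57. GRMZM2G060974 had 20 reads in CR-salt and 90 in CR (log2 -2.12, interval -2.90 to -1.41). GRMZM2G021706 had 24 reads in CR-salt and 84 in CR, GRMZM2G015976 had 49 in CR-salt and 126 in CR, and GRMZM2G173669 had 68 in CR-salt and 149 in CR. The member with the most reads, GRMZM2G000812, had 558 in CR-salt and 983 in CR (log2 -0.77, interval -0.92 to -0.62) and was lower at the FDR alone. Only GRMZM2G060974 of the 4 DTGs stays one with a BCV of 0.1.

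Among 31 measured carriers of the SP family of sugar and H+ symporters, 1 rose and 1 fell. GRMZM2G138589 had 38 reads in CR-salt and 6 in CR (log2 2.71, interval 1.45 to 4.24), and GRMZM5G801949 had 68 in CR-salt and 157 in CR (log2 -1.16). Of 7 invertases, which split sucrose, GRMZM2G018716 fell, with 3 reads in CR-salt and 49 in CR, a log2 ratio of -3.98 with a wide interval from -6.31 to -2.35. Its log2 ratio was -0.38 in SR and -3.55 in PR. An alpha-galactosidase, GRMZM2G095126, had 36 reads in CR-salt and 7 in CR (log2 2.41, interval 1.22 to 3.82) and rose.

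The enzymes that make sucrose and starch held no DTG. Sucrose synthase GRMZM2G045171 had 114 reads in CR-salt and 63 in CR (log2 0.90), and sucrose-phosphate synthase GRMZM2G055331 had 589 in CR-salt and 399 in CR (log2 0.61). All 5 measured starch synthases were above 0, with a median of 0.52. The 18 trehalose enzymes and the 43 transcripts of glycolysis and fermentation had none either.

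**Figure D3:**
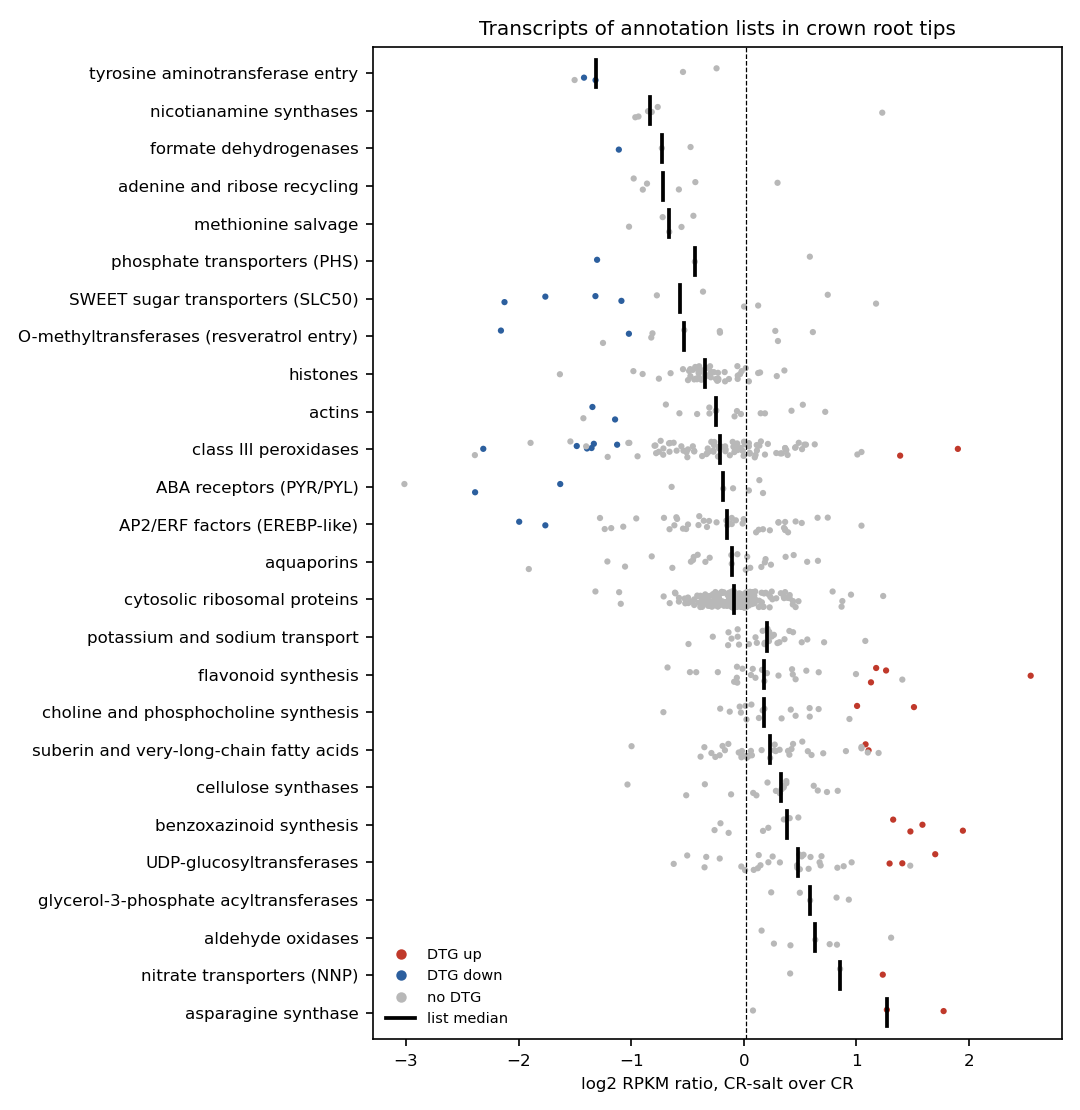
Log2 RPKM ratio (CR-salt over CR) of each measured transcript in 26 annotation lists, with DTGs coloured and the list median as a black bar. The dashed line is the median of all measured transcripts, 0.02; medians run from -1.32 for the tyrosine aminotransferase entry to 1.27 for asparagine synthase.

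Specialised metabolites had more rises than falls. Benzoxazinoids are the main defence compounds of young maize, made from an indole by a chain of P450 enzymes called BX2 to BX5 and then glucosylated. Of 12 measured transcripts 4 rose and none fell, with a median of 0.38. BX5 (GRMZM2G063756) had 457 reads in CR-salt and 157 in CR (RPKM 112 in CR-salt and 37.4 in CR, log2 1.59, interval 1.32 to 1.86). BX4 (GRMZM2G172491) had 158 in CR-salt and 65 in CR, BX3 (GRMZM2G167549) had 56 in CR-salt and 15 in CR, and GRMZM2G059465, with the TRIBOA-glucoside entry, had 100 in CR-salt and 37 in CR. These 4 were named because they were DTGs, and 3 of the 12 measured transcripts of the list were below 0. BX5 also passes with a BCV of 0.1. The methyltransferases of the resveratrol entry ran the other way, with a median of -0.53 over 11. There BX14 (GRMZM2G127418), which methylates a benzoxazinoid glucoside, had 10 reads in CR-salt and 46 in CR (log2 -2.16, interval -3.31 to -1.15), and AC209819.3_FGT005 had 205 in CR-salt and 429 in CR (log2 -1.02). Both fell.

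Of 27 measured flavonoid transcripts 4 rose, none fell, and the median was 0.18. Chalcone synthase c2 (GRMZM2G422750), the entry enzyme, had 34 reads in CR-salt and 6 in CR (log2 2.55, interval 1.28 to 4.09). Flavanone 3-hydroxylase fht1 (GRMZM2G062396) had 121 in CR-salt and 52 in CR, and the flavonoid 3'-hydroxylase entry GRMZM2G025832 had 359 in CR-salt and 164 in CR. The anthocyanidin synthase a2 (GRMZM2G345717) had 176 in CR-salt and 83 in CR (log2 1.13, interval 0.75 to 1.52). None of these passes with a BCV of 0.1. Their level in crown roots was low beside the primary root, where a2 had an RPKM of 567 in PR-salt and 583 in PR, against 56.2 in CR-salt and 25.7 in CR. The phenylpropanoid and lignin core upstream had no DTG in 49 measured and a median of -0.03.

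UDP-glucosyltransferases, which attach glucose to flavonoids, hormones and other small molecules, were above 0 in 26 of 32 measured, with a median of 0.48. CGTb (GRMZM2G383404) had 803 reads in CR-salt and 255 in CR (RPKM 218 in CR-salt and 67.2 in CR, log2 1.70). GRMZM2G304712 had 107 in CR-salt and 45 in CR, and GRMZM2G037545 had 72 in CR-salt and 28 in CR. All 3 rose. In the plastid route to isoprenoids (MEP pathway) the first enzyme, dxs1 (GRMZM2G137151), rose with 158 reads in CR-salt and 81 in CR (log2 1.01), 1 of 9 measured, and its ratio is under the threshold with TMM or DESeq2 scaling (0.98 with each).

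Of 17 chitinases, enzymes of pathogen defence, GRMZM2G145518 had 1587 reads in CR-salt and 646 in CR (RPKM 550 in CR-salt and 217 in CR, log2 1.34, interval 1.21 to 1.48). Its log2 ratio was 1.47 in SR and 0.81 in PR. The beta-glucosidase glu1 (GRMZM2G016890), which frees benzoxazinoids from their glucosides, fell, with 926 reads in CR-salt and 1948 in CR (log2 -1.03, interval -1.14 to -0.91), the only DTG of 22 measured.

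Class III peroxidases, wall-bound enzymes that use hydrogen peroxide to stiffen or loosen walls, formed a large list of 96 measured transcripts, of which 32 were above 0. Its median was -0.21, and 2 rose and 6 fell. GRMZM2G450717 had 257 reads in CR-salt and 71 in CR (log2 1.90, interval 1.52 to 2.30), and PER66 (GRMZM2G133475) had 543 in CR-salt and 214 in CR (log2 1.39, interval 1.16 to 1.62). Of those that fell, GRMZM2G088765 had 957 reads in CR-salt and 2485 in CR (log2 -1.33, interval -1.44 to -1.22). GRMZM2G134947 had 72 in CR-salt and 195 in CR, and GRMZM2G443885 had 39 in CR-salt and 200 in CR (log2 -2.31, interval -2.85 to -1.81). These 5 peroxidases, 2 up and 3 down, stay DTGs with a BCV of 0.1, and none of them with the estimated variation.

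A respiratory burst oxidase, GRMZM2G300965, which makes superoxide at the plasma membrane, had 207 reads in CR-salt and 466 in CR (log2 -1.13, interval -1.37 to -0.89) and fell, 1 of 13 measured. An ascorbate oxidase, GRMZM2G438386, had 20 reads in CR-salt and 62 in CR (log2 -1.59) and fell, 1 of 24. The enzymes that remove peroxide and superoxide inside cells (ascorbate peroxidases, catalase, superoxide dismutases) and 41 glutathione S-transferases held no DTG.

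In the ABA pathway 2 receptors fell, and the signalling transcripts downstream of them held no DTG. PYL receptors bind ABA and then block the PP2C phosphatases. PYL7 (GRMZM2G144224) had 28 reads in CR-salt and 151 in CR (log2 -2.39, interval -3.02 to -1.80), and PYL5 (GRMZM2G057959) had 31 in CR-salt and 99 in CR (log2 -1.63, interval -2.26 to -1.04), 2 of 9 measured. The 39 transcripts of PP2Cs, SnRK2 kinases and ABF factors had no DTG and a median of 0.22. A transcript with the entry of xanthoxin dehydrogenase, an enzyme of ABA synthesis, GRMZM2G308463, fell with 3 reads in CR-salt and 31 in CR (log2 -3.32, interval -5.68 to -1.64). It had 12 reads in SR-salt and 68 in SR, and the other direction in PR, with 58 in PR-salt and 12 in PR.

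Aldehyde oxidases, whose members make ABA or auxin in plants, were above 0 in all 7 measured transcripts. With a median of 0.63 they had the highest of the 373 KEGG entries, although none was a DTG and 3 were higher at the FDR alone. GRMZM2G141473 had 4016 reads in CR-salt and 2335 in CR (log2 0.83, interval 0.75 to 0.90), and AO2 (GRMZM5G899851) had 897 in CR-salt and 596 in CR. The log2 ratio of the pooled reads was 0.69 in CR, 0.81 in SR and 0.38 in PR.

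The lists of regulators and receptor kinases below held at most 2 DTGs each, all down. Over all measured transcripts, 0.528% were DTGs that fell and 0.303% DTGs that rose. The cytokinin response regulator RR7 (GRMZM2G096171) had 149 reads in CR-salt and 327 in CR (log2 -1.09), 1 of 21 in its list. Outside that list, GRMZM2G431039, with the entry of a cytokinin receptor, also fell, with 49 reads in CR-salt and 196 in CR (log2 -1.95). Of 45 measured AP2/ERF factors, which include ethylene and stress regulators, ERF1 (GRMZM2G053503) had 16 reads in CR-salt and 56 in CR, and GRMZM2G131281 had 18 in CR-salt and 74 in CR (log2 -1.99, interval -2.83 to -1.24). Among receptor kinases, the BAK1-type GRMZM2G379780 had 146 in CR-salt and 363 in CR, 1 of 65 in the brassinosteroid list. GRMZM2G364977, with the entry of the flagellin receptor FLS2, had 97 in CR-salt and 322 in CR (log2 -1.69). These names are those of the KEGG entries, which large kinase families share. A second FLS2-entry kinase (GRMZM2G080041) also fell, which made 2 of 47 measured. Of the IRAK4-entry kinases 1 of 145 fell (AC233953.1_FGT004), near the share over all measured transcripts. Of 37 clock transcripts, GRMZM2G014902 (LHY entry) had 82 reads in CR-salt and 176 in CR, and GRMZM2G018876 (CONSTANS entry) had 53 in CR-salt and 124 in CR, and both fell. The lists for auxin, ethylene synthesis and signalling, gibberellin and jasmonate, and those for MYB, WRKY and HD-ZIP factors, held no DTG.

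Wall lists differed in direction. Suberin is the waxy polymer that seals the endodermis and exodermis. Of 39 measured transcripts of suberin and very-long-chain fatty acids 2 rose: the ketoacyl-CoA synthase GRMZM2G149636 had 121 reads in CR-salt and 59 in CR (log2 1.08, interval 0.62 to 1.56), and the CYP86A-type GRMZM2G350020 had 117 in CR-salt and 56 in CR (log2 1.11, interval 0.64 to 1.59). Neither passes with a BCV of 0.1. All 5 measured glycerol-3-phosphate acyltransferases, which act in suberin and cutin, were above 0 with a median of 0.59 and no DTG. Cellulose synthases were above 0 in 14 of 18, 7 at the FDR alone, with a median of 0.33 and pooled reads of 15986 in CR-salt and 13437 in CR. Their median was -0.03 in SR and 0.24 in PR.

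The wall-loosening and cytoskeletal DTGs described next all fell, as did 94 of all 148 DTGs, and were grouped after the calls were known. The first of them is in no list and was named as a DTG that fell with many reads. The beta-expansin expB7 (GRMZM2G342246), a protein that loosens grass cell walls, had 210 reads in CR-salt and 982 in CR (log2 -2.18, interval -2.40 to -1.96), with log2 ratios of -1.51 in SR and -1.17 in PR. A pectinesterase, GRMZM2G019411, had 82 reads in CR-salt and 202 in CR (log2 -1.26), the only DTG of 28 pectinesterases and pectin lyases (median -0.29), and no xyloglucan transferase of 39 passed (median -0.12). Of 18 actins, 2 fell: GRMZM2G006765 had 415 reads in CR-salt and 1087 in CR (log2 -1.34, interval -1.51 to -1.18), and GRMZM2G082484 had 280 in CR-salt and 638 in CR (log2 -1.14, interval -1.35 to -0.94). Both had log2 ratios under -1 in SR (-1.81 and -1.22) and near 0 in PR (0.09 and 0.20). Actins are near-identical copies, so the share of each is uncertain. Tubulins had no DTG and a median of -0.12.

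Transcripts of dividing cells had ratios slightly below 1. Of 52 measured histones 6 were above 0, none was a DTG and 7 were lower at the FDR alone, with a median of -0.34, beside -0.38 in SR and -0.28 in PR. Their pooled reads were 10902 in CR-salt and 14009 in CR. The whole marker list of dividing cells, histones included, took 0.596% of the reads in CR-salt and 0.701% in CR, and 33 cyclins and replication proteins had a median of -0.07.

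Marker lists of the tip's cell groups share members with the lists above (suberin enzymes, cellulose synthases, histones, nicotianamine synthases), so their values are no separate evidence. Those of differentiating root (suberin enzymes, cellulose synthases, laccases) were above 0 in 28 of 36 measured and took 0.712% of the reads in CR-salt, against 0.578% in CR. Those of nutrient uptake, in which the nicotianamine synthases hold 6 of 12 measured transcripts and most of the reads, took 0.579% in CR-salt and 1.03% in CR. Green tissue markers were nearly absent, at 0.0221% of the reads in CR-salt and 0.0143% in CR with 22 of 71 at 0 in both, and 2 photosynthesis transcripts among them rose: GRMZM2G174984 had 183 reads in CR-salt and 88 in CR, and AC207722.2_FGT009 had 78 in CR-salt and 33 in CR (no DTG with TMM or DESeq2 scaling). The part of such shifts in the mix of cells in the lists above was not tested.

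Osmolyte and lipid routes rose at a few steps. Phosphoethanolamine methyltransferase (GRMZM2G060886), which makes phosphocholine, the source of choline and of the osmolyte glycine betaine, had 2829 reads in CR-salt and 1024 in CR (RPKM 740 in CR-salt and 260 in CR, log2 1.51, interval 1.41 to 1.62). In SR its log2 ratio was 0.18 and in PR 0.42. In the same list CTP synthase (AC234185.1_FGT004), which supplies the nucleotide for phosphocholine transfer, had 726 reads in CR-salt and 373 in CR (log2 1.01, interval 0.82 to 1.19), and 15 of 20 measured members were above 0. The CTP synthase also misses the threshold with TMM (0.97) or DESeq2 (0.98) scaling. Proline enzymes had no DTG among 4. Ornithine decarboxylase (GRMZM2G140824), a first step to polyamines, fell with 5 reads in CR-salt and 49 in CR (log2 -3.25, interval -4.93 to -1.93). It was the only DTG of 14 measured in the polyamine list, of which 9 were above 0, with a median of 0.41. Phospholipase C GRMZM2G157760 rose (122 reads in CR-salt, 61 in CR), and phospholipase D GRMZM2G159125 fell (6 in CR-salt, 36 in CR).

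Of the proteases 2 of 22 measured fell, and of the MATE efflux transporters 1 of 24, with list medians of -0.05 and 0.11. Over all measured transcripts, 0.528% were DTGs that fell. The cathepsin L-type protease GRMZM2G456217 had 68 reads in CR-salt and 240 in CR (log2 -1.77), beside log2 ratios of -2.23 in SR and -2.51 in PR. The serine carboxypeptidase GRMZM2G327595 had 218 in CR-salt and 535 in CR (log2 -1.25), and the MATE transporter GRMZM2G080992 had 12 in CR-salt and 50 in CR (log2 -2.01). These lists of ion and water transport held no DTG in crown roots: 25 aquaporins, 29 potassium and sodium transporters (median 0.21) and 68 proton pump transcripts. The lists of ABC transporters, heat shock proteins and 219 cytosolic ribosomal proteins (median -0.09) had none either. Related entries outside the lists did have DTGs. GRMZM2G371793 (ribosomal protein L10e entry) rose, with 239 reads in CR-salt and 87 in CR. GRMZM5G858887 (cyclic nucleotide gated channel entry) rose, with 110 in CR-salt and 55 in CR. GRMZM2G429396 (HSP20 entry) fell, with 13 in CR-salt and 48 in CR.

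Some of the strongest values were outside the lists. GRMZM2G049915, listed in RefSeq with the synonyms prcw1 and PRP, had the most reads of any DTG, with 6359 in CR-salt and 2104 in CR (RPKM 2391 in CR-salt and 767 in CR), and rose by a log2 ratio of 1.64 (interval 1.57 to 1.71). GRMZM2G020940 had 1053 reads in CR-salt and 477 in CR, and GRMZM2G105348, with a GO function term for DNA binding, had 616 in CR-salt and 293 in CR. AC206425.3_FGT002 (412 in CR-salt, 161 in CR) and GRMZM2G073943 (387 in CR-salt, 177 in CR) also rose. Larger ratios rested on fewer reads. GRMZM2G400929, with a zeta-carotene desaturase entry, had 38 in CR-salt and 4 in CR (log2 3.29), the largest rise of a DTG. GRMZM2G481362, with a lysophospholipase entry, had 50 in CR-salt and 8 in CR (log2 2.69).

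Of those that fell, the kinase GRMZM2G341410 had 1104 reads in CR-salt and 2435 in CR, and GRMZM2G065030, with a weak match to phosphoribosyl pyrophosphate synthetase, had 576 in CR-salt and 1393 in CR (log2 -1.23, interval -1.37 to -1.09). GRMZM2G106324 had 497 in CR-salt and 1063 in CR, and GRMZM2G449133 had 347 in CR-salt and 834 in CR. A pair was chosen after its values were seen. GRMZM2G027167 had 147 reads in CR-salt and 977 in CR (log2 -2.69, interval -2.95 to -2.44), and GRMZM2G153488, which RefSeq matches to 2 genes, one with the synonym defensin, had 1 in CR-salt and 82 in CR (log2 -6.31, interval -11.63 to -3.79). Both are among the 4 DTGs left with a BCV of 0.2, but GRMZM2G153488 is not among the 9 left with the estimated variation. The others of the 4 are left under both: GRMZM2G019974, with an organic cation transporter entry, had 7 reads in CR-salt and 100 in CR, and GRMZM2G329710 had 8 in CR-salt and 97 in CR.

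**Figure D4:**
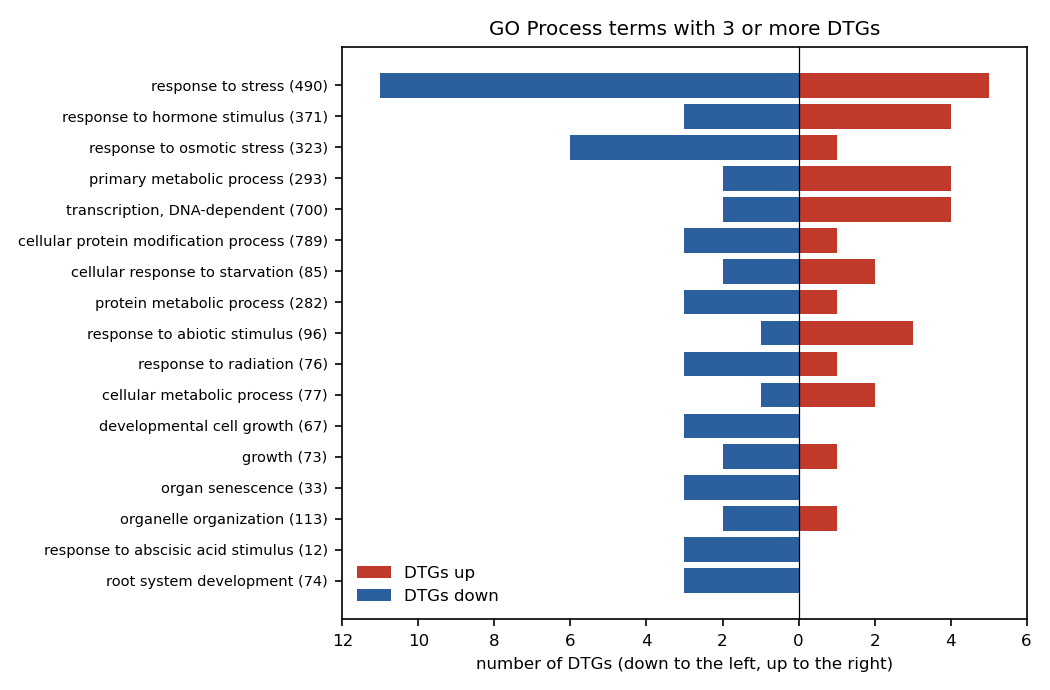
Number of DTGs that rose (right of 0) and fell (left of 0) in the 17 GO Process terms with at least 3 DTGs, with the measured transcripts of each term in brackets. Terms overlap, so a DTG can count in several. Response to stress has 5 up and 11 down of 490, and over all measured transcripts 0.832% were DTGs.

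Across GO Process terms the pattern was one of few DTGs per term. Of 361 named terms with at least 10 measured transcripts, 281 had no DTG and 17 had at least 3, and the medians of the 361 ran from -0.45 to 0.44. Over all measured transcripts, 0.832% were DTGs, and the counts below are to be read beside that share. Response to stress held the most, with 5 up and 11 down among 490. Response to osmotic stress had 1 up and 6 down among 323, and response to hormone stimulus 4 up and 3 down among 371. DNA-dependent transcription had 4 up and 2 down among 700, near the share over all measured transcripts. Cellular response to starvation had 2 up (both asparagine synthases) and 2 down (pht9 and phospholipase D) among 85.

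Several small terms rested on a few transcripts of 1 family. The 3 DTGs of organ senescence (33 measured) and the 3 of response to abscisic acid stimulus (12 measured) were the same SWEET transporters, GRMZM2G015976, GRMZM2G021706 and GRMZM2G173669, and they also count in osmotic stress. Developmental cell growth (67 measured) had 3 down, the actin pair and the ascorbate oxidase, and root system development (74 measured) had 3 down, the actin pair and phospholipase D. Nucleosome organization had no DTG, 12 of 65 above 0 and a median of -0.30.

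The salt ratios of crown roots were set against those of the other root types with an exact test on the reads of 4 libraries. Of the 148 CR DTGs, 46 were called in the same direction in SR (31.1% of them, and 28.9% of the 159 SR DTGs, which are 0.392% of the transcripts tested in SR) and none in the other. In PR, 14 were called in the same direction (9.46%, and 6.60% of the 212 PR DTGs, which are 0.519% of those tested in PR), and nrt2.2, GRMZM2G032225 and GRMZM2G308463 in the other. The ratio itself differed from that of SR for 16 CR DTGs and from that of PR for 50 under the same FDR limit and a log2 difference no smaller than 1. Over all transcripts in these tests, 0.186% (41 of 22084) differed from SR, 0.127% with a higher ratio in CR and 0.0589% with a lower one, and 0.662% (147 of 22215) differed from PR, 0.491% with a higher ratio in CR and 0.171% with a lower one. Since CR DTGs were picked for a large ratio in CR, their share is high by choice and is given as a description. These tests compare libraries with counting error only, and age differs between the root types.

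Among the transcripts whose ratio differed from that of PR were members of the nitrogen, benzoxazinoid, flavonoid and aminotransferase lists. The CR minus PR difference in log2 ratio was 6.57 for nrt2.2, 2.22 for the ammonium transporter GRMZM2G028736, 1.87 for asn3 and 1.62 for the glutamate synthase GRMZM2G085078. The second asparagine synthase, GRMZM2G078472, was not called against PR. For BX5 it was 2.14, for c2 it was 2.57, and for the aminotransferases GRMZM2G412604 and naat1 it was -1.61 and -1.53. The actin pair differed by -1.43 and -1.34.

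Against SR, which shared more calls, fewer transcripts differed. The phosphoethanolamine methyltransferase GRMZM2G060886 had a CR minus SR difference of 1.33, GRMZM2G078472 (asparagine synthase) of 1.18, PER66 of 1.44, CGTb of 1.0 and a2 of 1.40. Ornithine decarboxylase differed by -3.03, the invertase GRMZM2G018716 by -3.23 and the peroxidase GRMZM2G443885 by -2.72. For nicotianamine synthase the sums gave -0.85 in CR and -0.42 in SR, and for methionine salvage -0.63 in CR and 0.11 in SR, and neither difference of sums was tested.

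**Figure D5:**
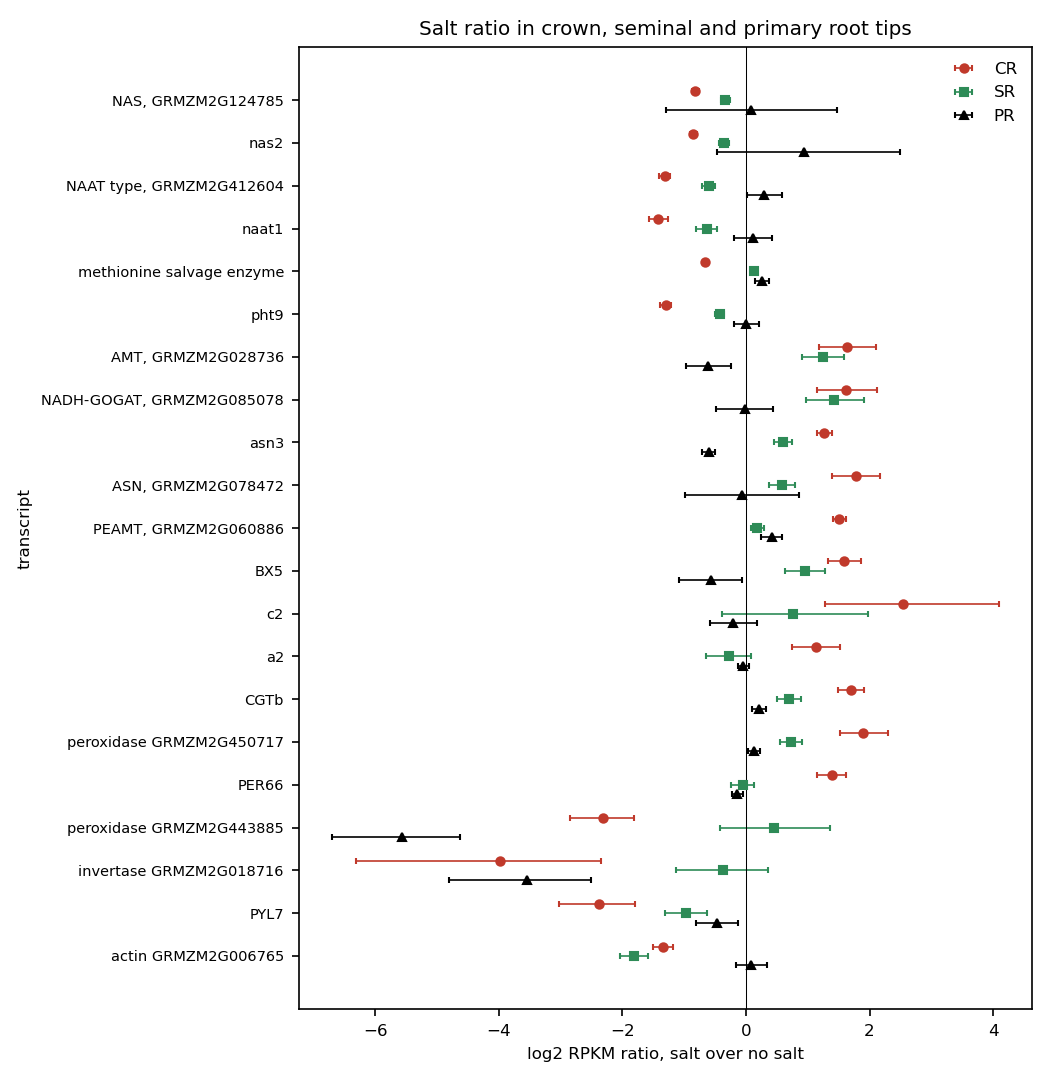
Log2 RPKM ratio, salt over no salt, of 21 transcripts in crown, seminal and primary root tips, with exact intervals (95%, counting error only). The asparagine synthase asn3, BX5 and the aminotransferases show crown root ratios away from those of primary roots. PYL7 and the nicotianamine synthases are below 0 in crown roots by 2.39 and by 0.82 and 0.85.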

How the data were processed

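RNA was sequenced from 1 cm root tips in 6 libraries, 1 per root type and NaCl level, and only the CR pair is the subject here, with the SR and PR pairs for comparison. The deposited table gives, for each transcript and library, a count of uniquely aligned reads, which is not normalized, and the RPKM, which the authors computed from that count, the transcript length and the counted reads of the library (recomputed here with a largest difference of 1.74e-06). The percent of each transcript covered by reads, also deposited, was not used. The authors filtered the reads, used SOAP for alignment to B73 and BLAST to assign reads to genes. Whether strand was used in counting is not given in the sources used here, so reads of overlapping genes cannot be told apart. Reads carry no molecular identifiers, and intervals cover counting error only. Every value column was assigned to a library by its name (0 columns without a sample). Growth, qRT-PCR and soluble sugar measurements were not analysed here.

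The Audic-Claverie test was applied to the reads of CR-salt and CR, with Benjamini-Hochberg adjustment over 40132 transcripts, an FDR of at most 0.001, a log2 RPKM ratio of at least 1 in size and an RPKM of 0 replaced by 0.01. Ratio intervals are exact (Clopper-Pearson, 95%) and intervals of single libraries are Poisson. Ratios of CR and another root type were compared with an exact conditional test for transcripts with at least 20 reads in 4 libraries, with 1 read added for the difference. Lists were made from the first KEGG entry of each transcript at an E value of at most 1e-20, and described by counts and medians, with no test. The members, lists and tests were chosen with earlier results of these data known. Named were the DTGs of each list (for lists with more than 6, the 3 with the most reads and the largest change in each direction), at most 2 abundant members of a list with no DTG, and the 5 DTGs outside the lists with the most reads in each direction. The transcripts GRMZM2G153488, GRMZM2G027167, GRMZM2G049811, GRMZM2G131907, GRMZM5G891282, GRMZM2G051842, GRMZM2G000812, GRMZM2G010280, GRMZM2G163866, GRMZM2G029951, GRMZM2G032225, GRMZM2G019974, GRMZM2G329710, GRMZM2G119766, AC198414.2_FGT001, GRMZM2G371793, GRMZM5G858887, GRMZM2G429396, GRMZM2G431039, GRMZM2G400929 and GRMZM2G481362 fell outside this rule and were chosen after their values were seen. Gene symbols came from the RefSeq table of Zm-B73-REFERENCE-NAM-5.0, used for names only, which matched 19373 transcripts and 98 of the 148 DTGs.

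On simulated counts for the 48312 transcripts, the CR test recovered 194 of 200 transcripts changed 4-fold, with 0 other calls, and 95.3% of intervals held the true ratio (8795 transcripts). The test of the CR and SR ratios recovered 181 of 200 among 21837, with 0 other calls. The simulated counts held counting error only, as the tests and intervals assume, and changed transcripts had at least 50 expected reads. These values therefore check the computation, and cannot show how many false calls arise from variation between libraries. Alternatives used other thresholds, Fisher's exact test, TMM (edgeR 4.0.16) or DESeq2 (1.42.0) size factors, edgeR exact tests with a set or estimated variation, sums over genes and other E values. The tests ran in scipy 1.17.1 and R 4.3.3, tables in pandas 2.3.3 with numpy 2.4.6 (Python 3.11.15) and plots in matplotlib 3.10.9.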

Additional observations from a re-analysis of the deposited data

Results flagged for a closer look

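The transcripts described above were looked at again where the salt ratio in CR differed from that of another root type, by the exact test on the reads of 4 libraries (counting error only). Left out here were GRMZM2G371793, GRMZM5G858887, GRMZM2G429396, GRMZM2G431039, GRMZM2G400929 and GRMZM2G481362. Values are differences of log2 ratios, CR minus the other root type, and root type and seedling age cannot be told apart.

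Against SR, the difference was positive for the peroxidases PER66 (GRMZM2G133475) with 1.44 and GRMZM2G450717 with 1.16, for a2 (GRMZM2G345717) with 1.40, for the phosphoethanolamine methyltransferase GRMZM2G060886 with 1.33 and for the asparagine synthase GRMZM2G078472 with 1.18. It was 1.11 for GRMZM2G073943, 1.03 for AC206425.3_FGT002 and 1.0 for CGTb (GRMZM2G383404). It was negative for the invertase GRMZM2G018716 with -3.23, ornithine decarboxylase GRMZM2G140824 with -3.03 and the peroxidase GRMZM2G443885 with -2.72. It was also negative for the nitrate transporter GRMZM2G010280 with -1.70, which had 142 reads in CR-salt and 81 in CR, against 202 in SR-salt and 33 in SR, and for adenosine kinase GRMZM2G051842 with -1.36.

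Against PR, the nitrogen transcripts had 6.57 for nrt2.2 (GRMZM2G010251, with 1 read in PR-salt), 3.79 for GRMZM2G010280, 2.22 for the ammonium transporter GRMZM2G028736, 1.87 for asn3 (GRMZM2G053669), 1.62 for glutamate synthase GRMZM2G085078, 1.41 for nitrite reductase GRMZM2G102959 and 1.12 for glutamate dehydrogenase GRMZM2G427097. All of these were positive.

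In specialised metabolism the difference from PR was 2.42 for BX4 (GRMZM2G172491), 2.14 for BX5 (GRMZM2G063756), 1.98 for GRMZM2G059465, 2.57 for c2 (GRMZM2G422750), 1.60 for fht1 (GRMZM2G062396), 1.52 for GRMZM2G025832 and 1.16 for a2. The glucosyltransferases GRMZM2G304712 and CGTb had 1.85 and 1.48.

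The peroxidase GRMZM2G443885 had 3.13 against PR, the opposite side from its value against SR, with 39 reads in CR-salt and 200 in CR. GRMZM2G450717 had 1.76, PER66 had 1.52 and GRMZM2G088765 had -1.26. The sugar carriers GRMZM5G801949 and GRMZM2G060974 had 2.04 and -2.41. The trehalose-phosphate synthase TPS9 (GRMZM2G312521) had 1.08 and the phosphoethanolamine methyltransferase 1.09.

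Negative differences from PR were -5.08 for GRMZM2G308463 (xanthoxin dehydrogenase entry), -1.88 for PYL7 (GRMZM2G144224), -1.61 for GRMZM2G412604, -1.53 for naat1 (GRMZM2G096958) and -1.31 for pht9 (GRMZM2G070087). The actins GRMZM2G006765 and GRMZM2G082484 had -1.43 and -1.34, the pectinesterase GRMZM2G019411 had -1.35 and expB7 (GRMZM2G342246) had -1.01. The kinases GRMZM2G364977 and GRMZM2G379780 had -1.39 and -1.18, the carboxypeptidase GRMZM2G327595 had -1.30 and GRMZM2G449133 had -1.27. The formate dehydrogenase GRMZM2G049811 had -1.44 and the copper ATPase entry GRMZM2G029951 had -1.03. Outside the lists GRMZM2G073943 had 1.23 and GRMZM2G020940 had 1.06, while GRMZM2G153488 had -4.91 (1 read in CR-salt), GRMZM2G032225 had -3.25 and GRMZM2G027167 had -1.87.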

How the results depend on the processing

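The number of DTGs in CR-salt against CR depended on the thresholds and on the variation assumed between libraries, beside 148 (54 up, 94 down) as reported. It was 312 (128 up, 184 down) at an FDR of at most 0.05, 70 (23 up, 47 down) at a log2 ratio of at least 1.5 and 465 (221 up, 244 down) without a ratio threshold. With the edgeR exact test it was 65 (20 up, 45 down) at a BCV of 0.1, 4 (0 up, 4 down) at a BCV of 0.2 and 9 (1 up, 8 down) with the dispersion of the additive fit. The 71 DTGs in lists (30 up, 41 down) became 107 (47 up) at an FDR of at most 0.05 and 28 (10 up, 18 down) at a BCV of 0.1. At an FDR of at most 0.05 the ratio differed from SR for 105 transcripts, beside 41, and from PR for 293, beside 147. Fisher's exact test gave 147 DTGs, and TMM or DESeq2 scaling 151 each (50 up, 101 down), of which 144 were among the 148. These scalings moved the median log2 ratio of measured transcripts from 0.02 to -0.01 with each. Among 168 of the named transcripts, no call changed direction in these alternatives. Direction was compared only where a transcript was called. Most alternatives changed a threshold or moved the ratios little, so a change was hardly possible and its absence says little. Of the 81 DTGs among the 168, 49 were under a log2 ratio of 1.5. Lost were 41 at a BCV of 0.1, 79 at 0.2, 76 with the additive-fit dispersion and 3 with each scaling. Of the list medians with an absolute value of at least 0.2, that of the alpha-galactosidase and raffinose list changed sign when any E value was allowed. Smaller medians were not checked for their sign. No paired analysis was possible because CR-salt and CR are 1 library each without replicate numbers. A fit over the pairs of the 3 root types would test the salt effect they share, not that of CR.

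Depth limited transcripts with few reads, since 17588 of the transcripts in CR-salt and 17578 in CR with a read had fewer than 10. Of the DTGs, 5 had at most 3 reads in CR-salt, and their ratios have wide intervals. Pooled tips, 1 library per condition and unique alignment in multigene families limit every value.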
